A study of Mus musculus with 186 samples.

Results

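The comparison described here is that of lungs from bleomycin-treated mice given the ALK5 inhibitor SB525334 with lungs from bleomycin-treated mice given its oral vehicle, both taken on day 28. The libraries were chosen by their labels alone, and they were 15 of the 186 in the series, with 8 from SB525334 lungs and 7 from vehicle lungs. Both groups were female C57BL/6 mice of about 12 weeks with bleomycin under the skin at 10 mg/kg a day, in 100 µl, 5 times a week for 2 weeks. The first group then received SB525334 by mouth at 30 mpk, given BID from day 12, and the second received oral vehicle on the same schedule, with the last oral dose on day 27. A further 7 lung libraries of day 28, from mice injected with PBS and given oral vehicle, are set beside them as controls without bleomycin. The series is a mouse model of scleroderma in which bleomycin acts on the whole body, and it holds 93 lung and 93 skin libraries. RNA from the superior lobe was sequenced after ribosomal RNA depletion on a stranded total RNA protocol, so each value is a mean over every cell in the lobe.

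TGF-beta ligands are held in the matrix in latent form and, once released, bind a type II receptor that activates the type I receptor ALK5, encoded by Tgfbr1. ALK5 phosphorylates SMAD2 and SMAD3, which enter the nucleus and raise the transcription of collagens, fibronectin and the pathway's own inhibitors. SB525334 is a small molecule that blocks the kinase activity of ALK5, and ALK5 signalling in fibroblasts is a long-studied driver of fibrosis in lung and skin.

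Libraries that stand apart come first, since several results below rest on them. Depth was 4.88 to 21.39 M counts (median 15.44 M) in SB525334 lungs and 6.94 to 19.8 M (median 16.61 M) in vehicle lungs. Lung identity was present in every library, with Sftpc, the surfactant protein C of alveolar type 2 cells, at 7779 to 20110 CPM in SB525334 lungs, 3107 to 18340 CPM in vehicle lungs and 7440 to 12500 CPM in PBS lungs (CPM, counts scaled to library size by TMM). The 84 ribosomal protein genes took 2.449 to 14.64% of the counts in SB525334 lungs (median 7.92%) and 2.313 to 11.13% in vehicle lungs (median 3.42%), against a median of 2.168% over all 93 lung libraries. Of the 12 lung libraries over 1.5 times that median, all were of day 28 and on plate 1, as the code in the sample descriptions gives the plate without saying of which step, and they comprised 6 SB525334, 4 vehicle and 2 PBS lungs. The mean share was 7.82% in SB525334 and 5.8% in vehicle lungs, and a two-sided exact permutation test over 6435 regroupings gave p = 0.3773. The regroupings ignored plate, so the test does not compare the groups within a plate. The library of vehicle R2 held transcripts of other tissues, with Krt4, a keratin of stratified squamous epithelium, at 4711 CPM and Myh8, a skeletal muscle myosin, at 1295 CPM. Libraries SB525334 R1 and R4 held summed hair keratin gene levels of 166 and 132 CPM, where summed levels are without TMM.

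The library labelled vehicle R6 went against its label. Over the 550 genes that were at least 2-fold higher with bleomycin on day 14 (edgeR, adjusted p below 0.05), the median log2 difference from the day 14 PBS lungs was 0.81 to 1.75 in SB525334 lungs and 0.87 to 1.8 in the other 6 vehicle lungs, but -0.01 in the library labelled vehicle R6. Among all 4278 pairs of lung libraries, that library and PBS R7 were the closest, with a chi-square of 2.02 per gene where the next pair had 4.64, and no pair of libraries held identical counts. The PBS lungs lay between -0.06 and 0.9 on the same measure, with the highest value, 0.9, in the library labelled PBS R6, inside the range of the bleomycin lungs and so also against its label. The other PBS lungs reached at most 0.46. PBS medians below include that library, and without it they were 682 CPM for Col3a1 (728.5 CPM with it), 372 CPM for Fn1 (407.5 CPM with it) and 31 CPM for Mmp3 (34.2 CPM with it). The source of the library labelled vehicle R6 was not tested, and results that rest on it are given with and without it below. Vehicle R3 stood apart in the other direction, with the highest level in its group of many matrix genes. The labels do not say that the libraries of a group came from separate mice, so p-values measure only the spread between these samples.

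**Figure D1:**
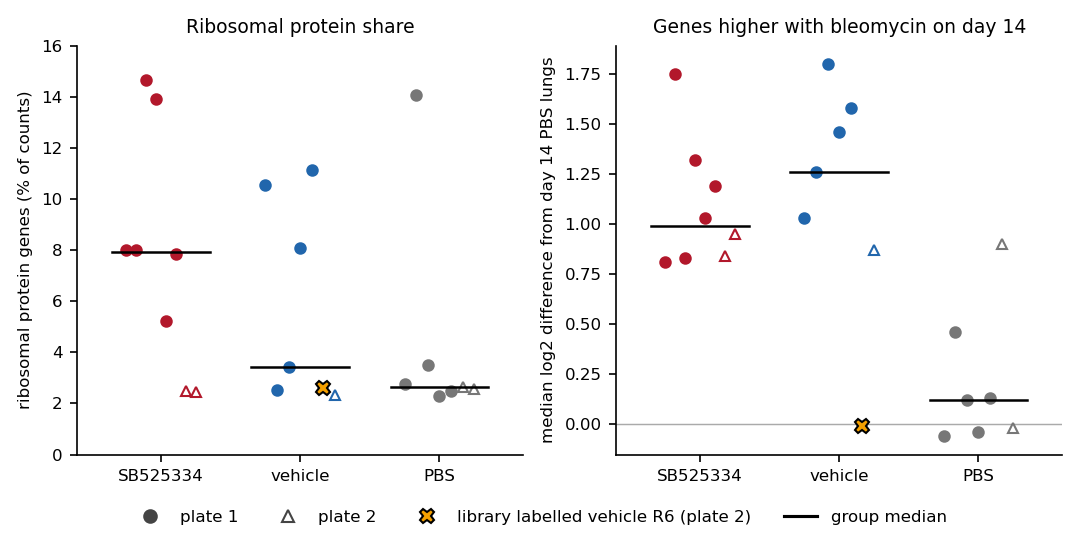
Share of counts in ribosomal protein genes (left, percent) and median log2 difference from the day 14 PBS lungs over 550 bleomycin-induced genes (right) in each day 28 lung library. Circles are plate 1, triangles plate 2, black lines group medians and the orange cross the library labelled vehicle R6, which lies at -0.01 on the right while the other 6 vehicle lungs lie between 0.87 and 1.8.

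With plate as a covariate, edgeR's quasi-likelihood test on the 15 libraries called 0 of 14744 genes (0%) at a Benjamini-Hochberg adjusted p below 0.05, and the smallest adjusted p was 0.1185. At an unadjusted p below 0.05, 570 genes (3.87%) were higher and 818 (5.55%) lower in SB525334 lungs. DESeq2 on the same libraries called 93 of 14600 genes (0.637%), 41 higher and 52 lower, and limma voom with library quality weights called 15 of 14744 (0.102%), 9 higher and 6 lower. All 15 of the voom genes were among the 93.

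Without the library labelled vehicle R6, edgeR called 12 of 14707 genes (0.0816%), 4 higher and 8 lower, with 650 genes (4.42%) higher and 983 (6.68%) lower at an unadjusted p below 0.05. DESeq2 then called 181 of 14568 genes (1.24%), and voom 69 of 14707 (0.469%). When vehicle R2 was left out as well, edgeR called 7 of 14684 genes, 2 higher and 5 lower in SB525334 lungs. Those lower were Phex, Mmp2, Mmp3, Mfap5 and Aspn, and those higher were Dhrs7c (log2 fold change 1.77) and Eno3 (0.83).

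A fit across all 93 lung libraries tested the same contrast with the spread of every lung group pooled, which assumes that the day 28 libraries vary no more than the rest. It called 1301 of 15647 genes (8.31%), with 412 (2.63%) higher and 889 (5.68%) lower in SB525334 lungs. Without vehicle R2 it called 487 of 15726 (3.1%), with 141 (0.897%) higher and 346 (2.2%) lower, and without the library labelled vehicle R6 1322 of 15752 (8.39%), with 479 (3.04%) higher and 843 (5.35%) lower. Without both it called 722 of 15845 (4.56%), with 250 (1.58%) higher and 472 (2.98%) lower. The assumption does not hold for ribosomal protein share. Its SD, in percent of counts, was 4.6 in SB525334 and 3.97 in vehicle lungs of day 28, against 0.078 and 0.101 on day 21. For day 21, a fit pooled in the same way called 59 genes, where the 16 libraries of that day alone gave 890. The 4 all-lung fits of day 28 share most of their libraries, so passing in all 4 is not independent support. All 4 keep vehicle R3, which had the lowest quality weight in voom (0.1502), so a fall can rest in part on that library. For day 28, "rose" and "fell" are used below of genes that passed in all 4 of these all-lung fits, whose spread is that of many lung groups, and no gene so described passed in the edgeR fit on the 15 libraries. The log2 fold changes given are of that 15-library fit, with SE, unless another is named.

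The 10 genes of smallest p on the lower side in SB525334 lungs included Mmp3, Fbn2, Tgfb3 and Lama2 of the lists described below. Mmp3 (chromosome 9, bases 7445822 to 7455975 of GRCm38), the secreted protease stromelysin 1, lay at 20.2 to 34.4 CPM (median 27.1) in SB525334 lungs, against 36.4 to 58.1 CPM (median 46.7) in vehicle lungs and a median of 34.2 CPM in PBS lungs. Every SB525334 lung was below every vehicle lung, and the log2 fold change was -0.78 ± 0.13 (edgeR, adjusted p = 0.1335, and 0.0204 at -0.85 without the library labelled vehicle R6). Mmp3 fell in the all-lung fit by 0.79 on the log2 scale, with an edgeR adjusted p of 0.005232.

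Itgbl1, an extracellular protein with EGF-like repeats related to beta integrins, had 1.59 to 5.25 CPM (median 2.88) in SB525334 lungs, against 4.73 to 12.9 CPM (median 6.77) in vehicle lungs. The groups overlapped only at their edge, and Itgbl1 fell with a log2 fold change of -1.48 ± 0.28 (edgeR adjusted p = 0.1846 on 15 libraries, and 1.04e-06 in the all-lung fit). Fbn2, fibrillin 2 of elastic microfibrils, was at 0.268 to 1.49 CPM in SB525334 lungs (median 0.937), against 1.61 to 8.42 CPM in vehicle lungs (median 3.19). The groups did not overlap, and the log2 fold change of -1.98 ± 0.39 was the largest in size of the 10 genes of smallest p on this side. Tgfb3, a TGF-beta ligand, lay at 25.7 to 37.4 CPM in SB525334 lungs (median 30.2), against 35.4 to 69.2 CPM in vehicle lungs (median 49.2), with a median of 40.5 CPM in PBS lungs. In 7 of 8 SB525334 lungs it was below every vehicle lung. Tgfb3 fell by 0.64 ± 0.13 on the log2 scale, and without the library labelled vehicle R6 its edgeR adjusted p was 0.04179 at -0.72.

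The other 6 of these genes were Cdh13 (T-cadherin, log2 fold change -0.65), Pi15 (a secreted peptidase inhibitor, -0.66), Sema3d (a secreted semaphorin, -0.73), Sulf1 (an extracellular sulfatase of heparan sulfate, -0.58), Lama2 (laminin alpha 2, -0.60) and Sv2c (a synaptic vesicle glycoprotein, -0.98 in the all-lung fit). Each of them fell. A further 5 genes passed beside Mmp3, Itgbl1 and Tgfb3 on the lower side when the library labelled vehicle R6 was left out of the edgeR fit. Phex, a membrane endopeptidase, then had a log2 fold change of -1.03 ± 0.11 (edgeR adjusted p = 0.001597). Mmp2, gelatinase A, stood at -1.06 ± 0.15, and Mfap5, a glycoprotein of microfibrils, at -0.83 ± 0.12 (both with an edgeR adjusted p of 0.0204), while Nrcam, a neuronal cell adhesion molecule, stood at -1.35 ± 0.23 and Ccna1, cyclin A1, at -1.70 ± 0.29 (both 0.04179).

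Mmp2 shows what that library does to a value. It lay at 75.4 to 167 CPM in SB525334 lungs and at 63.2 to 282 CPM in vehicle lungs, with 63.2 CPM in the library labelled vehicle R6. The other 6 vehicle lungs, from 191 CPM upwards, were all above every SB525334 lung, and PBS lungs had a median of 74.1 CPM.

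The 10 genes of smallest p on the higher side included Pln, Tnni3 and Myl4, members of the cardiac muscle list. Pln (chromosome 10, bases 53337667 to 53345987 of GRCm38), phospholamban, the inhibitor of the sarcoplasmic calcium pump, lay at 7.88 to 18.3 CPM (median 10.2) in SB525334 lungs, against 4.53 to 9.49 CPM (median 5.65) in vehicle lungs and a median of 9.32 CPM in PBS lungs. It had the smallest p of all genes, with a log2 fold change of 0.93 ± 0.14 (edgeR adjusted p = 0.1185, and 0.04179 without the library labelled vehicle R6). Myl4, the atrial myosin light chain, was at 53.3 to 94.7 CPM in SB525334 lungs, against 11.5 to 42.7 CPM in vehicle lungs, with no overlap and a log2 fold change of 1.11 ± 0.24. Mybphl, a myosin-binding protein of the atrium, was at 5.16 to 8.31 CPM in SB525334 lungs and 1.51 to 5.01 CPM in vehicle lungs, again without overlap, and had a log2 fold change of 1.25 ± 0.24. These genes rose, as did Myoz2, a Z-disc protein (1.35 ± 0.26), and Tnni3, cardiac troponin I (1.12 ± 0.23).

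The remaining 5 genes of smallest p on this side were Treml4, a receptor of myeloid cells (log2 fold change 1.38), Csf3r, the receptor for granulocyte colony-stimulating factor (0.92), Ifitm6, an interferon-induced transmembrane protein (1.72), Wnt3a, a secreted ligand (0.52), and Msl3l2 (0.62), and they too rose. Treml4 lay at 3.41 to 11.9 CPM in SB525334 lungs, against 1.45 to 3.31 CPM in vehicle lungs and a median of 5.58 CPM in PBS lungs. Without the library labelled vehicle R6, Wnt3a passed the edgeR test at 0.61 and Gzmb, the granzyme B of cytotoxic lymphocytes, at 1.19 ± 0.20 (both with an adjusted p of 0.04179). Over all genes, every SB525334 lung lay below every vehicle lung for 9 (0.061%) and above for 7 (0.0475%), or 28 (0.19%) and 15 (0.102%) without the library labelled vehicle R6.

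**Figure D2:**
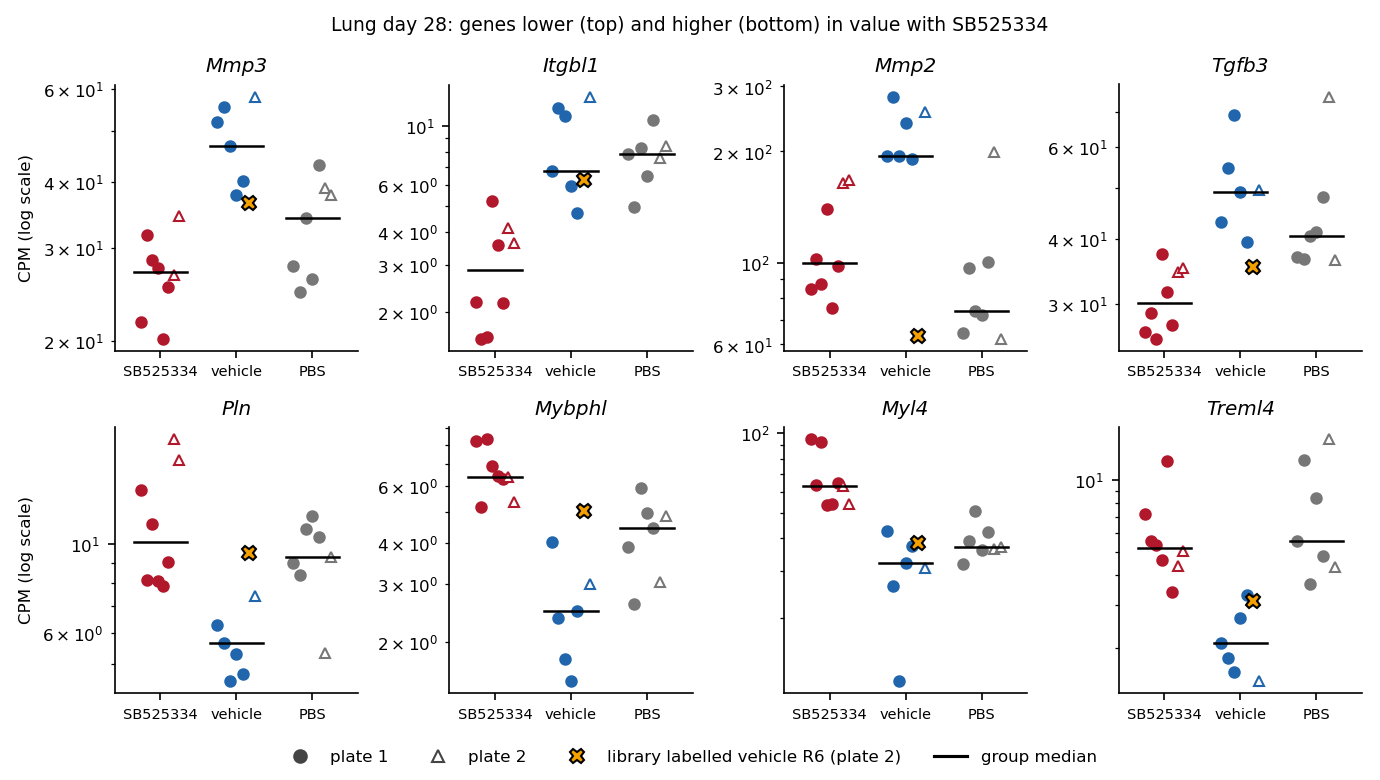
CPM (log axis) of 8 genes with small p-values in each day 28 lung library of SB525334, vehicle and PBS mice. Circles are plate 1, triangles plate 2, the orange cross the library labelled vehicle R6 and black lines group medians; Mmp3 has medians of 27.1 CPM in SB525334 and 46.7 CPM in vehicle lungs, and Pln has medians of 10.2 CPM in SB525334 and 5.65 CPM in vehicle lungs.

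Tgfbr1, which encodes the receptor ALK5, did not pass, while the ligand genes Tgfb2 and Tgfb3 fell. Of 27 tested receptors, SMADs, ligands and latent binding proteins, 0 had an unadjusted p below 0.05 on the higher side and 4 on the lower side (all genes, 3.87% and 5.55%), with a median log2 fold change of -0.06 (all genes, -0.01). The all-lung fit called 4 of them lower, as did that without vehicle R2. The shares over all genes apply to every list count below. At an unadjusted p below 0.05 on the 15 libraries they were 3.87% higher and 5.55% lower. Without the library labelled vehicle R6 they were 4.42% and 6.68%. For calls in the all-lung fit they were 2.63% higher and 5.68% lower, and without vehicle R2 0.897% and 2.2%. Tgfbr1, the target of the compound, lay at 119 to 200 CPM in SB525334 lungs and at 111 to 248 CPM in vehicle lungs, with a log2 fold change of -0.04 ± 0.14 (edgeR adjusted p = 0.9093). The groups overlapped fully, and the compound acts on the protein, so the level of the transcript is no check of dosing. Tgfb2, another ligand, fell to a median of 28.1 CPM in SB525334 lungs, against 37 CPM in vehicle lungs (log2 fold change -0.37 ± 0.15), and Inhbb, the beta B subunit of activin and inhibin, fell by 0.46 ± 0.16 on the log2 scale, or by 0.24 without vehicle R3. Ltbp2, a microfibril protein of the latent TGF-beta binding family, was at 75.6 to 132 CPM in SB525334 lungs, against 66.4 to 746 CPM in vehicle lungs, and a median of 94.2 CPM in PBS lungs. Its lowest vehicle value was that of the library labelled vehicle R6. All 8 SB525334 lungs lay below the other 6 vehicle lungs, and Ltbp2 fell by 1.21 ± 0.38 on the log2 scale. Its log2 fold change was -0.74 without vehicle R3 and -0.65 with voom.

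Of 29 tested targets and feedback genes of ALK5 and SMAD signalling, 1 was higher and 3 were lower at an unadjusted p below 0.05, with a median log2 fold change of -0.11, and -0.12 without the library labelled vehicle R6. Smad7, the inhibitory SMAD, had medians of 44.6 CPM in SB525334 and 36.1 CPM in vehicle lungs, with a log2 fold change of 0.07 ± 0.16. Pmepa1 (-0.17 ± 0.19), Skil (-0.10 ± 0.13) and Ccn2 (-0.36 ± 0.20), further targets, did not pass on the 15 libraries or in the all-lung fit. Without vehicle R2 and R6, the all-lung fit called Pmepa1, an inhibitor of the pathway, lower at -0.45 (edgeR adjusted p = 0.02695) and Smad6, the inhibitory SMAD of BMP signalling, higher at 0.82 (0.005231).

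Matrix genes, many of which are known targets of TGF-beta in fibroblasts, lay on the lower side. Of 83 tested genes in 5 lists (fibrillar collagens, other matrix proteins, basement membrane, elastic fibre, and collagen cross-linking), 78 had a negative log2 fold change, 45 were lower and 0 higher at an unadjusted p below 0.05, and 0 passed the adjusted test on the 15 libraries. Their median was -0.50, against -0.01 over all genes. Without the library labelled vehicle R6, 79 were negative, 59 were lower and 0 higher at an unadjusted p below 0.05, 1 passed, and the median was -0.60. DESeq2 called 7 of them lower with that library and 30 without it, and voom called 0 with it and 14 without it. With quality weights in voom, 73 of the 83 were negative, 34 were lower and 1 was higher at an unadjusted p below 0.05, and the median was -0.29. Over all 14744 genes, voom had 655 lower and 877 higher at that threshold. The all-lung fit called 46 of 86 lower, 26 without vehicle R2, 48 without the library labelled vehicle R6 and 38 without both, with 0 higher in any. Of the fibrillar collagens it called 6 of 11 lower, but 1 without vehicle R2. In this bulk tissue, fewer cells that express these genes and less RNA per cell cannot be told apart.

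By list, 6 of 9 fibrillar collagens had an unadjusted p below 0.05 and were lower (median log2 fold change -0.82), as were 12 of 26 other matrix and matricellular genes (-0.58), 17 of 22 basement membrane genes (-0.43), 5 of 12 elastic fibre genes (-0.39) and 6 of 18 cross-linking and processing genes (-0.34). Without the library labelled vehicle R6 those medians were -1.03, -0.70, -0.51, -0.50 and -0.34.

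Col3a1, collagen III of interstitial fibrils, lay at 416 to 964 CPM (median 779) in SB525334 lungs, against 437 to 2392 CPM (median 1192) in vehicle lungs and a median of 728.5 CPM in PBS lungs. All 8 SB525334 lungs were below the 6 vehicle lungs other than the library labelled vehicle R6, which had the lowest vehicle value. Its log2 fold change was -0.97 ± 0.30, and without that library -1.18 ± 0.23 (edgeR adjusted p = 0.07766). Col3a1 passed in the all-lung fit but not without vehicle R2 (edgeR adjusted p = 0.05969). Col1a1, the main chain of collagen I, was at 85.3 to 412 CPM (median 181) in SB525334 lungs and 45.4 to 1198 CPM (median 351) in vehicle lungs. The groups overlapped, vehicle R3 being the highest, and the log2 fold change was -0.82 ± 0.38, or -0.40 without vehicle R3. Col1a1 passed in the all-lung fit but not without vehicle R2 (edgeR adjusted p = 0.05577). Col5a2, a chain of collagen V that nucleates fibrils, fell by 1.17 ± 0.32 on the log2 scale, with medians of 117.5 CPM in SB525334 and 205 CPM in vehicle lungs.

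Eln, elastin, was at 85.3 to 376 CPM (median 145) in SB525334 lungs and 113 to 974 CPM (median 310) in vehicle lungs, with a median of 151 CPM in PBS lungs. It fell by 1.36 ± 0.43 on the log2 scale although the groups overlapped. Among small proteoglycans, Bgn (biglycan) had medians of 274 CPM in SB525334 and 574.5 CPM in vehicle lungs and fell by 0.79 ± 0.21, and Aspn (asporin) had medians of 13.4 CPM in SB525334 and 26.9 CPM in vehicle lungs and fell by 0.96 ± 0.22 on the log2 scale. Fibrillin 1, Fbn1, had medians of 276 CPM in SB525334 and 491 CPM in vehicle lungs and fell by 0.76 ± 0.24. Among the enzymes, Bmp1, which cleaves the C-terminal propeptide of collagens, fell by 0.56 ± 0.15, and Loxl2, a lysyl oxidase, fell by 0.72 ± 0.22. Lamb3 and Col4a4, of the epithelial basement membrane, fell by 0.62 ± 0.16 and 0.49 ± 0.15.

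Matricellular genes did not all follow. Fn1, fibronectin, was at 873 to 1985 CPM (median 1134) in SB525334 lungs, against 267 to 4716 CPM (median 1491) in vehicle lungs and a median of 407.5 CPM in PBS lungs. The SB525334 lungs lay inside the vehicle range, and the log2 fold change of -0.34 ± 0.39, or -0.59 without the library labelled vehicle R6, did not pass on the 15 libraries or in the all-lung fit. Tnc, tenascin C, stood at -0.74 ± 0.41 and passed in the all-lung fit only when the library labelled vehicle R6 alone was left out (-1.05, edgeR adjusted p = 0.03856). Postn, periostin, fell by 0.58 ± 0.17 on the log2 scale, with medians of 213 CPM in SB525334 and 385 CPM in vehicle lungs and 388.5 CPM in PBS lungs.

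**Figure D3:**
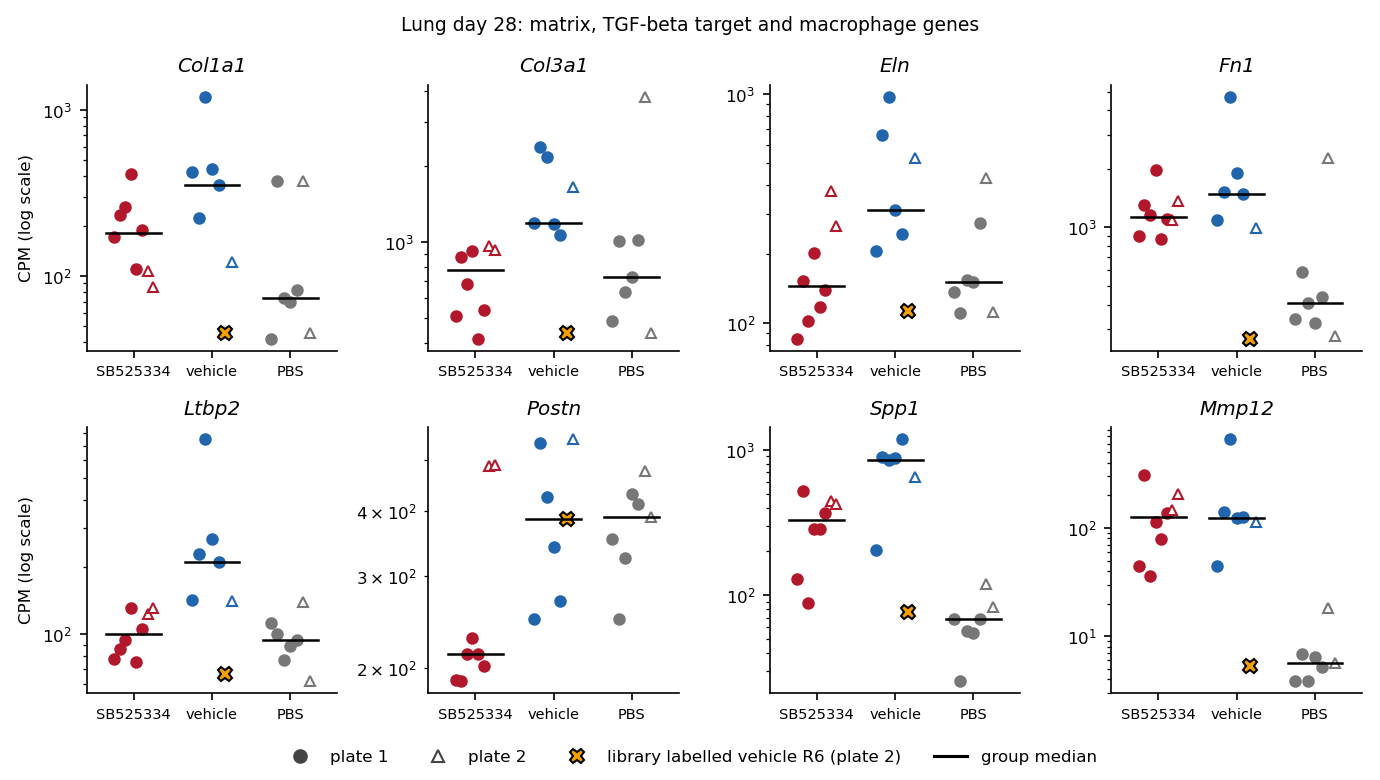
CPM (log axis) of 6 matrix and TGF-beta target genes and of Spp1 and Mmp12 in each day 28 lung library of SB525334, vehicle and PBS mice. Circles are plate 1, triangles plate 2, the orange cross the library labelled vehicle R6 and black lines group medians; for Col3a1 and Ltbp2 all SB525334 lungs lie below the other 6 vehicle lungs, while for Fn1 and Postn the groups overlap.

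Transcript length moved with the same contrast. Across the 14744 genes tested, the log2 fold change fell with exon length (Spearman rho -0.437 across genes, which are not independent replicates), and the value was -0.429 without the library labelled vehicle R6 and -0.131 in the fit that kept neither the libraries rich in ribosomal protein counts nor those with other tissue. Without the libraries rich in ribosomal protein counts, which leaves the contrast to plate 2, where vehicle R7 and the library labelled vehicle R6 were the vehicle lungs, 33 of 86 matrix genes were negative, 5 were lower and 10 higher at an unadjusted p below 0.05, and the median was 0.06. With the ribosomal protein share as a covariate, 77 of the 83 matrix genes were negative, 29 were lower and 0 higher at an unadjusted p below 0.05, and the median was -0.38. With that covariate and without the library labelled vehicle R6, 46 were lower at an unadjusted p below 0.05 and the median was -0.50. Over all 15025 genes without the libraries rich in ribosomal protein counts, 636 were lower and 1007 higher at that threshold. Over all 14744 genes with the covariate, 505 were lower and 560 higher. With the covariate and without the library labelled vehicle R6, 630 of all 14707 genes were lower and 637 higher. The part of transcript length in the matrix values was not tested.

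Of 15 metalloproteinases and their inhibitors, 1 was higher and 4 were lower at an unadjusted p below 0.05 (median log2 fold change -0.20). Mmp9, gelatinase B, rose by 1.26 ± 0.29 on the log2 scale, with 5.73 to 21.2 CPM in SB525334 lungs, against 2.42 to 7.33 CPM in vehicle lungs and a median of 8.76 CPM in PBS lungs. Mmp12, the macrophage elastase, was at 35.7 to 307 CPM in SB525334 lungs and 5.28 to 658 CPM in vehicle lungs, with overlapping groups and a log2 fold change of -0.24 ± 0.72.

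Genes of smooth muscle and myofibroblast contraction had few small p-values, with 0 higher and 1 lower of 15 tested at an unadjusted p below 0.05 and a median of -0.09. Acta2, smooth muscle actin, was at 172 to 243 CPM (median 220) in SB525334 lungs and 166 to 245 CPM (median 191) in vehicle lungs, and its log2 fold change was 0.18 ± 0.09. Among 20 genes of resting lung fibroblasts, 3 were higher and 1 was lower at an unadjusted p below 0.05 (median -0.05). Tcf21, a transcription factor of lipofibroblasts, rose by 0.76 ± 0.27 on the log2 scale, with 41.4 to 74 CPM in SB525334 lungs, 9.36 to 53.7 CPM in vehicle lungs and a median of 42.6 CPM in PBS lungs. Col14a1, a collagen of adventitial fibroblasts, fell by 0.62 ± 0.15.

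Among leukocyte genes the neutrophil and lymphocyte lists were higher in value. Of 14 neutrophil genes, 7 were higher and 1 was lower at an unadjusted p below 0.05 (all genes, 3.87% and 5.55%). Their median log2 fold change was 0.87, and 0.73 without the library labelled vehicle R6. The all-lung fit called 6 higher (all genes, 2.63%), 2 without vehicle R2 (0.897%) and 3 without vehicle R2 and R6 (1.58%). Cxcr2, the neutrophil chemokine receptor, had a log2 fold change of 0.95 ± 0.29 (edgeR adjusted p = 0.06299 in the all-lung fit without vehicle R2), with 2.95 to 13.7 CPM in SB525334 lungs and 1.94 to 6.15 CPM in vehicle lungs. Of 22 T and NK cell genes, 6 were higher and 0 lower (median 0.42, and 0.47 without that library), and the all-lung fit called 6 higher, 1 without vehicle R2 and 4 without vehicle R2 and R6. Gzmb was at 4.35 to 8.26 CPM (median 6.15) in SB525334 lungs and 1.53 to 8.03 CPM (median 2.88) in vehicle lungs, where the value of 8.03 CPM was that of the library labelled vehicle R6. Gzmb rose by 0.94 ± 0.24 on the log2 scale. Lck, a kinase of T cell receptor signalling, stood at 0.63 ± 0.18 and did not pass in the all-lung fit without vehicle R2 (edgeR adjusted p = 0.05087).

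Macrophage genes were mixed. Of 24 macrophage and monocyte genes, 2 were higher and 0 lower at an unadjusted p below 0.05 (median 0.19), and of 23 genes of SPP1 and lipid-associated macrophages 0 were higher and 1 was lower (median 0.12). Spp1, osteopontin, was at 89 to 520 CPM (median 327) in SB525334 lungs and 76.7 to 1178 CPM (median 856) in vehicle lungs, with a median of 68.1 CPM in PBS lungs. The groups overlapped, and its log2 fold change was -1.06 ± 0.50. Spp1 passed in the all-lung fit but not without vehicle R2 (edgeR adjusted p = 0.05516). Trem2, a lipid-sensing receptor of the same macrophages, stood at 0.62 ± 0.38, with medians of 49.5 CPM in SB525334 and 39.7 CPM in vehicle lungs. Siglecf, of alveolar macrophages, stood at 0.46 ± 0.22 and Mrc1, the mannose receptor, at -0.31 ± 0.15 (-0.18 without vehicle R3), and neither passed in the all-lung fit without vehicle R2 (edgeR adjusted p = 0.1605 and 0.06511). The medians of the 2 lists were 0.06 and 0.01 without the library labelled vehicle R6.

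Cytokine genes did not pass the all-lung test upwards, although 6 of 25 were higher and 1 lower at an unadjusted p below 0.05 (median 0.15). Il1b, interleukin 1 beta, was at 15.7 to 28.1 CPM in SB525334 lungs and 8.65 to 23.4 CPM in vehicle lungs, with a log2 fold change of 0.68 ± 0.18. Ccl2 and Ccl7, monocyte chemokines, stood at 1.04 ± 0.33 and 1.07 ± 0.31. Of 26 interferon-induced genes 2 were higher and 0 lower (median 0.15), of 16 antigen presentation genes 0 in either direction (0.07), and of 16 B and plasma cell genes 4 were higher and 0 lower (0.09). Medians without the library labelled vehicle R6 were 0.17 for cytokines, 0.12 for interferon-induced, 0.03 for antigen presentation and 0.15 for B and plasma cell genes.

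Epithelial lists gave few calls. Of 18 alveolar type 2 genes 0 had an unadjusted p below 0.05 in either direction (median 0.08), and Sftpc stood at 0.31 ± 0.33. Of 16 alveolar type 1 genes 3 were lower and 0 higher (median -0.08), and Col4a3, a basement membrane collagen made by these cells, fell by 0.41 ± 0.15, or by 0.27 without vehicle R3. Transitional epithelium genes had 2 of 20 lower and 0 higher (-0.12), club cell genes 0 of 14 in either direction (0.22) and ciliated cell genes 0 of 16 in either direction (0.03). Leaving out the library labelled vehicle R6 gave medians of 0.09 for type 2, -0.05 for type 1, -0.17 for transitional, 0.32 for club and 0.07 for ciliated cell genes.

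Of 23 vascular endothelial genes 1 was higher and 0 lower at an unadjusted p below 0.05 (median 0.11), and this was Sox18, an endothelial transcription factor, which stood at 0.39 ± 0.11 and did not pass in the all-lung fit without vehicle R2 (edgeR adjusted p = 0.111). Lymphatic endothelial genes were lower in 4 of 8 and higher in 0 (median -0.44, and -0.39 with 3 lower without the library labelled vehicle R6), and the all-lung fit called 5 lower, or 4 without vehicle R2. Reln, reelin, was at 19.6 to 31.5 CPM in SB525334 lungs and 27.7 to 79.1 CPM in vehicle lungs and fell by 0.71 ± 0.20, the groups overlapping at their edge. The 79.1 CPM was that of vehicle R3, and the other vehicle lungs reached at most 48.92 CPM. Prox1, the transcription factor that sets lymphatic identity, fell by 0.74 ± 0.28, or by 0.45 without vehicle R3, and Mmrn1, multimerin 1, fell by 0.66 ± 0.17. Lyve1, the hyaluronan receptor, stood at -0.45 ± 0.18 and did not pass without vehicle R2 and R6.

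Genes of DNA damage and proliferation gave few calls. Of 32 p53 target genes 2 were higher and 2 lower at an unadjusted p below 0.05 (all genes, 3.87% and 5.55%). Their median was 0.03, and Cdkn1a, the cell cycle inhibitor p21, stood at -0.31 ± 0.17. Tnfrsf10b, a death receptor, fell by 0.62 ± 0.18. Of 35 cell cycle genes 31 had a negative value and 2 were lower at an unadjusted p below 0.05 (median -0.24, and -0.35 with 7 lower without the library labelled vehicle R6). The all-lung fit called 1 of them lower (all genes, 5.68%). That gene was E2f1, a transcription factor of S phase entry, with a log2 fold change of -0.35 ± 0.15, and it did not pass without vehicle R2 (edgeR adjusted p = 0.05401). Heat shock and immediate early genes had 1 of 19 higher and 4 lower (0.03), and Hspa1a, a stress-induced chaperone, had -1.64 in the 15-library fit and -0.71 without vehicle R2 and R6. NRF2 and AHR target genes had 3 of 18 higher and 0 lower (0.11), with 0 called in the all-lung fit.

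Among clock genes, Dbp rose. Dbp, a clock-driven transcription factor, was at 30.3 to 57.1 CPM (median 36.3) in SB525334 lungs and 8.77 to 35.5 CPM (median 14.5) in vehicle lungs, with a median of 13.2 CPM in PBS lungs, and rose by 1.34 ± 0.30. Arntl, the clock activator BMAL1, was at 17.6 to 30.3 CPM in SB525334 lungs and 22.7 to 40.4 CPM in vehicle lungs. Its log2 fold change of -0.54 ± 0.13 passed in the all-lung fit but not without vehicle R2 and R6 (edgeR adjusted p = 0.0825). No hour of killing was used here. Of the 16 clock genes 4 were higher and 1 was lower at an unadjusted p below 0.05, and the median was 0.08.

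Genes of heart muscle and fat, tissues next to the lobe, moved with the groups. Of 13 cardiac muscle genes 4 were higher and 1 lower at an unadjusted p below 0.05 (median 0.32), but 11 were higher and 0 lower without vehicle R2 (median 0.82). In that edgeR fit without vehicle R2, 539 of all 14693 genes were higher and 570 lower at that threshold. Summed over this list, vehicle R2 held 9341 CPM, and the other vehicle lungs held 269.4 to 1059 CPM. In vehicle R2 the heart genes Myh6 (122.7 CPM) and Tnni3 (14.39 CPM) lay inside the range of the other vehicle lungs. Nppa (15.18 CPM) was the highest of the group, and the skeletal muscle list summed to 6324 CPM. Myl7, an atrial light chain, rose by 1.14 ± 0.33, with 63.4 to 197 CPM in SB525334 lungs, 16.1 to 94.2 CPM in vehicle lungs and a median of 50.8 CPM in PBS lungs. Of 10 adipocyte genes 6 were higher and 0 lower (median 1.05), and the all-lung fit called 4 higher, 1 without vehicle R2 and 2 without vehicle R2 and R6. Adipoq, adiponectin, was at 6.35 to 28.4 CPM (median 19.7) in SB525334 lungs and 1.24 to 17.4 CPM (median 5.9) in vehicle lungs, with a median of 20.3 CPM in PBS lungs. The log2 fold change of Adipoq was 1.45 ± 0.45, which passed in the all-lung fit but not without vehicle R2 and R6 (edgeR adjusted p = 0.06151). Mouse lung veins carry heart muscle, and the part of dissection in these values was not tested.

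The remaining lists, only some of which mark tissue carried along, were set by few libraries or did not pass. Skeletal muscle and squamous lists had medians of -3.48 and -1.38 that rest on vehicle R2; Acta1, skeletal actin, stood at -6.25 on the 15 libraries and at -0.04 without vehicle R2 and R6. Hair genes had a median of 1.95 with 6 of 6 higher at an unadjusted p below 0.05. Their list summed to 166.2 CPM in SB525334 R1 and 132.2 CPM in R4, and to at most 44.43 CPM in the other SB525334 lungs. Red cell genes had a median of 0.67 with 1 of 8 higher. Ribosomal protein genes had a median of 0.38, with 0 of 80 at an unadjusted p below 0.05. Liver genes had 1 of 5 higher (0.66), thymus genes 0 of 7 in either direction (0.09), nerve and Schwann cell genes 0 of 9 (-0.04), and genes of type 2 airway inflammation and mucus 1 of 13 higher and 1 lower (-0.32).

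Matrix values differed in size between the plates. Plate 1 held 6 SB525334 and 5 vehicle lungs, and plate 2 held 2 SB525334 lungs, vehicle R7 and the library labelled vehicle R6. On plate 1 without vehicle R2, the 83 matrix genes had a median log2 fold change of -0.64 (all genes, 0.01). On plate 2 the median was 0.04 with the library labelled vehicle R6 and -0.22 without it, when only vehicle R7 was left on that side and no test was made. Without that library 67 of the 83 were negative on plate 2, and 63 were negative on both plates. The fibrillar collagens had medians of -1.15 on plate 1 without vehicle R2 and of -0.33 on plate 2 without the library labelled vehicle R6, where 9 of 9 were negative.

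On plate 2, Col3a1 was at 964 and 930 CPM in the 2 SB525334 lungs, against 1653 CPM in vehicle R7 and 437 CPM in the library labelled vehicle R6. Eln was at 376 and 264 CPM in the SB525334 lungs of plate 2, against 523 CPM in vehicle R7 and 113 CPM in the library labelled vehicle R6. For both genes the SB525334 lungs of plate 2 lay between these vehicle values, so the sign on that plate rests on which of them is kept.

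An interaction term between plate and compound gave 0 of 14744 genes (0%) by edgeR, with 572 at an unadjusted p below 0.05, and 0 with 199 when the library labelled vehicle R6 was left out. With all 15 libraries, 74 of the 83 matrix genes had a more negative value on plate 1 (median difference -0.80, all genes 0), and 25 of them had an unadjusted p below 0.05. Leaving out that library, 71 did (median difference -0.51, all genes -0.01), and 2 of them had an unadjusted p below 0.05. Ribosomal protein share differed along with plate, since all 12 libraries over 1.5 times the lung median were on plate 1, and the 2 cannot be told apart.

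**Figure D4:**
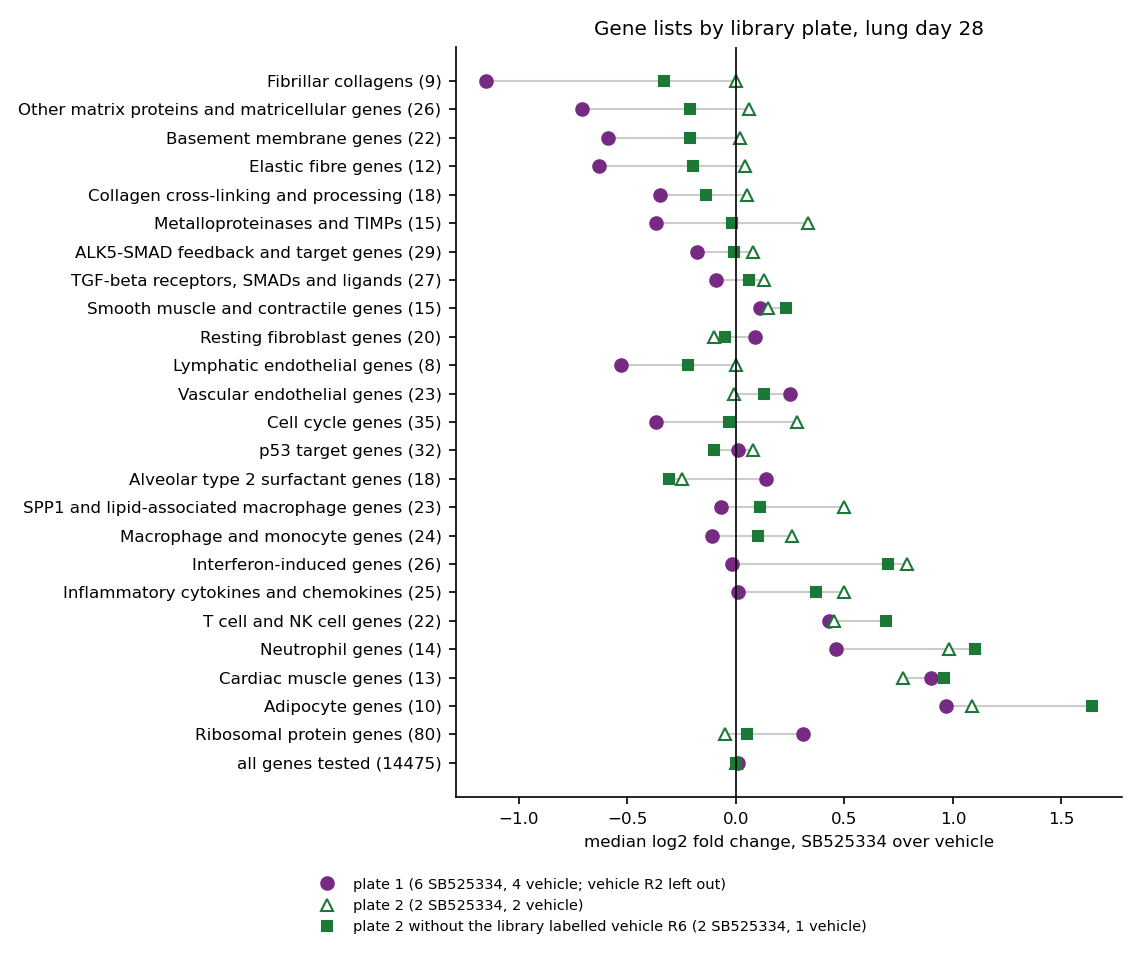
Median log2 fold change (SB525334 over vehicle) of each gene list on plate 1 without vehicle R2 (purple circles), on plate 2 (open triangles) and on plate 2 without the library labelled vehicle R6 (green squares). The fibrillar collagens lie at -1.15, 0 and -0.33, and the adipocyte genes at 0.97, 1.09 and 1.64.

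Some other lists had medians of 1 sign on both plates. Adipocyte genes had medians of 0.97 on plate 1 without vehicle R2 and 1.64 on plate 2 without the library labelled vehicle R6, with 10 of 10 positive on both. Cardiac genes had medians of 0.90 and 0.96 in these fits, with 12 of 13 positive on both, T and NK cell genes 0.43 and 0.69, and neutrophil genes 0.46 and 1.10. Interferon-induced genes lay at -0.02 and 0.70, ALK5 and SMAD targets at -0.18 and -0.01, alveolar type 2 genes at 0.14 and -0.31, and genes of type 2 airway inflammation at -0.48 and 0.79.

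Of the genes higher on plate 1 without vehicle R2 at an unadjusted p below 0.05, 334 of 457 (73.1%) were also higher on plate 2 without the library labelled vehicle R6, where 51.1% of all genes were. Of those lower on plate 1, 441 of 794 (55.5%) were lower there, where 48.9% of all genes were. With that library kept, the shares were 58.9% and 41.8%, where 49.5% of all genes were higher and 50.5% lower. The genes lower on plate 1 were then lower on plate 2 less often than all genes. The plates share no library.

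**Figure D5:**
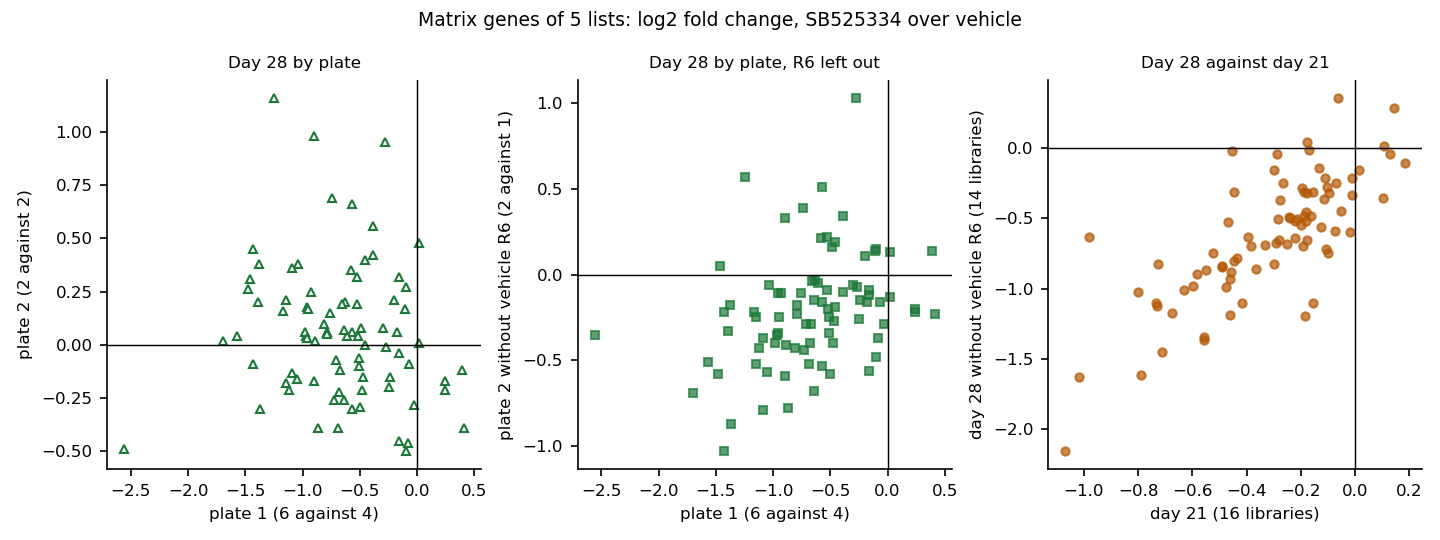
Log2 fold change (SB525334 over vehicle) of each of the 83 matrix genes on plate 1 without vehicle R2 against plate 2 (left), the same without the library labelled vehicle R6 on plate 2 (middle), and on day 28 without that library against day 21 (right). In the middle panel 63 genes are negative on both axes, and in the right panel 75.

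On day 21, a separate set of 16 lung libraries gave the same contrast of SB525334 with vehicle after bleomycin, and shares no library with day 28. There edgeR called 404 of 15045 genes (2.69%) higher and 486 (3.23%) lower. Of the 83 matrix genes, 38 were called lower on day 21 and 0 higher, and 74 were negative on both days, or 75 without the library labelled vehicle R6. The fibrillar collagens had medians of -0.82 on day 28 and -0.50 on day 21, and the basement membrane genes had -0.43 on day 28 and -0.21 on day 21.

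Genes called on day 21 were followed in the day 28 lungs. Of those lower on day 21, 484 were tested on day 28 and 79.3% were lower in value there, where 52.2% of all genes were (163 lower and 0 higher at an unadjusted p below 0.05, median -0.20). Of those higher on day 21, 72.2% of 400 were higher in value (68 higher and 3 lower at an unadjusted p below 0.05, median 0.11). Without the library labelled vehicle R6 the shares were 79.5% and 67.8%.

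Among the genes named above, Mmp2 fell on day 21 by 0.71 on the log2 scale (edgeR adjusted p = 3.4e-07), and Itgbl1 by 1.07 (1.7e-04). Mmp3, Pi15, Fbn2, Tgfb3, Lama2, Mfap5, Col1a1, Col3a1, Eln and Ltbp2 also passed on the lower side on day 21, with log2 fold changes between -1.07 for Fbn2 and -0.29 for Lama2. Dbp rose there by 1.55 and Csf3r by 0.68, and Myoz2 rose by 0.81, while Treml4 stood at 0.11 and Mybphl at 0.49. Named genes that did not pass on day 21 included Cdh13 (-0.15, edgeR adjusted p = 0.4562), Wnt3a (0.04, 0.7436), Pln (0.59, 0.06947) and Fn1 (-0.07). Targets of ALK5 and SMAD signalling had a median of 0.00 on day 21, and the SPP1 macrophage genes one of 0.19 with 8 of them called higher.

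The difference between the days was itself tested. Day 28 minus day 21 gave 0 of 15159 genes (0%) by edgeR, with 346 more positive and 471 more negative on day 28 at an unadjusted p below 0.05 and a smallest adjusted p of 0.8402, and DESeq2 also gave 0. Treml4 (difference 1.28), Rflna (0.97), Sox18 (0.62), Akt1s1 (0.52) and Impdh1 (0.52) had the smallest p on the positive side. On the negative side these were Krt4 (-11.47, set by vehicle R2), Kcnt1 (-2.84), Cdk5rap1 (-1.37), Olfr613 (-1.14) and Dbt (-0.29), and all 10 had an edgeR adjusted p of 0.8402. Leaving out the library labelled vehicle R6 gave 0 again.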

How the data were processed

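Estimated counts per gene were deposited as one table of the whole series, made with RSEM on GRCm38 per the submitters' processing notes, which also name edgeR; aligner, annotation and versions are not given in the sources used here. A second deposited table of log2 CPM (16160 gene IDs) served as an alternative. Of the expected counts as deposited, 83.7% were whole, and they were rounded before testing. A gene name stood beside 21852 of the 22095 gene IDs counted. Exon lengths and positions came from GENCODE for GRCm38.

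Genes were filtered with filterByExpr and scaled by TMM, and SB525334 was tested against vehicle with edgeR 4.0.16 (quasi-likelihood, robust, R 4.3.3) on group and plate, with Benjamini-Hochberg adjustment over all genes tested. The SE of a log2 fold change was derived from the test's F value. Levels are CPM scaled by TMM over the lung libraries. Alternatives used DESeq2 1.42.0 and limma 3.58.1, and figures matplotlib 3.10.9. The edgeR fit on the 15 libraries was tried on simulated counts. At the spread estimated from those libraries, it found 85 out of 100 simulated 2-fold shifts. It found 48 out of 100 simulated 1.5-fold shifts and made 4 false calls. With a spread (dispersion) of 0.02 for every gene, these numbers were 100, 92 and 8. No simulation is given here for DESeq2, voom or the all-lung fits.

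The genes named are the 10 of smallest p in each direction whose mean log2 CPM reached 1, up to 4 members of smallest p per list, a set of pathway and marker genes, the 5 of smallest p in each direction for the difference between days, and genes that mark a library. A gene of the ALK5 target list is not reported here by name. Phex, Nrcam, Ccna1 and further members of lists were named after their values were seen. Members and the 41 gene lists were chosen with earlier results of these data known. Fits without vehicle R2 or the library labelled vehicle R6 were mostly chosen after seeing the data. In the 0-count edgeR fit a gene's direction is a value and not a call.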

Additional observations from a re-analysis of the deposited data

Results flagged for a closer look

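Within the SB525334 and the vehicle group of day 28, 192 groups of values were examined for 1 library far from the rest by Dixon's criterion, and 28 were marked. Chance marks about 1 in 20 groups if values are normal and groups independent. CPM values of genes from the same libraries need not be either, so 28 is not read as an excess. No explanation was tested.

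Among SB525334 lungs the highest library stood apart for 6 genes. Treml4 was at 11.93 CPM in R5, with the others at 3.405 to 7.187 CPM, and Lck was at 28.42 CPM in R3 (others 13.05 to 19.49 CPM). R4 held Cdh13 at 30.71 CPM (others 20.75 to 23.91), Fn1 at 1985 CPM (others 873.2 to 1366) and Mmp9 at 21.21 CPM (others 5.727 to 12.42). Myh8 was at 1.341 CPM in R3.

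Vehicle R2 stood apart in the summed levels of the squamous list (11810 CPM), the cardiac list (9341 CPM) and the skeletal muscle list (6324 CPM), and in Krt4 (4711 CPM), Myh8 (1295 CPM) and Acta1 (1210 CPM). Vehicle R5 had 30.73 CPM summed over the hair list and vehicle R1 had 425.5 CPM over the adipocyte list (others 189.3 to 258.2).

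Vehicle R3 was the highest of its group for Fn1 (4716 CPM), Col1a1 (1198 CPM), Ltbp2 (746.1 CPM), Mmp12 (658.4 CPM), Ccn2 (400.6 CPM), Acta2 (245.1 CPM), Pmepa1 (107.6 CPM), Reln (79.05 CPM), Inhbb (48.26 CPM) and Prox1 (20.48 CPM, others 4.473 to 10.99). The library labelled vehicle R6 stood apart in Smad6 (83.48 CPM, others 24.46 to 47.35), Gzmb (8.03 CPM, others 1.53 to 3.548), Siglecf (20.16 CPM, others 7.24 to 10.97) and Mmp2 (63.16 CPM, others 191.3 to 281.7).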

How the results depend on the processing

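The count of genes called by edgeR on the 15 libraries was 0. It was also 0 with RLE scaling, with no filter, on the deposited log2 values, without plate, with the ribosomal protein share as a covariate, without the libraries rich in ribosomal protein counts or other tissue, and on plate 1 without vehicle R2. It was 93 with DESeq2, 15 with voom, 1301 over all 93 lung libraries (982 with the ribosomal protein share as a covariate), 3 over the 22 lung libraries of day 28 and 1 on plate 1. Fits chosen after seeing the data gave 487 (all lung without vehicle R2), 1322 (all lung without R6), 722 (all lung without R2 and R6), 21 (all lung without either kind of doubted library), 7 (without R2 and R6), 5 (without R6, ribosomal share as a covariate), 1 (without R2, ribosomal share as a covariate), 181 (DESeq2 without R6) and 69 (voom without R6). Leaving out 1 library at a time gave 0 to 12. The difference between days had 26 calls over all lung libraries and 34 without either kind of library. The median of the 83 matrix genes ran from -0.60 without R6 to -0.38 without R3 when 1 library at a time was left out. It was -0.70 on plate 1 and -0.29 with voom. Over 86 matrix genes it was 0.06 without the libraries rich in ribosomal protein counts.

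Replicate numbers were tried as a block, which gave 0 calls. Deviations of the 7 same-numbered pairs correlated at -0.37 to 0.171, 2 of them over 0.1, and 1 SB525334 library correlated best with its own number, so the numbers were not read as pairing.

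Some named genes changed sign. Without libraries rich in ribosomal protein counts, without either kind of doubted library, and without both over all lung libraries, only plate 2 carried the contrast. There SB525334 R7 and R8 stood against vehicle R7 and the library labelled vehicle R6. The log2 fold changes in these fits were for Pmepa1 0.43 in each, Ltbp2 0.32, 0.31 and 0.31, Ccn2 0.06, 0.06 and 0.05, Col1a1 0.21, 0.20 and 0.20, Fn1 0.99, 0.98 and 0.98, Tnc 0.37, 0.36 and 0.36, Postn 0.08, 0.07 and 0.07, Eln 0.02, 0.02 and 0.01, Spp1 0.26, 0.26 and 0.25, Mmp12 1.58, 1.57 and 1.57, Cdkn1a 0.11, 0.10 and 0.10, Tgfb2 0.13, 0.13 and 0.12, Fbn1 0.07, 0.06 and 0.06, Loxl2 0.04, 0.03 and 0.03, Mmp2 0.07, 0.06 and 0.06, Tgfbr1 0.07, 0.06 and 0.06, E2f1 0.06, 0.05 and 0.05, Prox1 0.16, 0.16 and 0.15, Sftpc -0.33, -0.34 and -0.34, and Siglecf -0.15, -0.16 and -0.16. The 83 to 86 matrix genes then had medians of 0.06, 0.05 and 0.05. With voom, Tgfbr1 had 0.09 (0.07 without R6), Pmepa1 0.00, Skil 0.03 (0.05 without R6), Fn1 0.06 and Mmp12 0.64. With the ribosomal share as a covariate, Tgfbr1 had 0.08 (0.02 over all lung, 0.06 without R2, 0.03 without R6), Skil 0.03 (0.01 over all lung, 0.03 without R2, 0.05 without R6) and Mmp12 0.41 (0.37 without R2, 0.05 without R6). Without other-tissue libraries Tgfbr1 had 0.04, Skil 0.02 and Mmp12 0.00, and on the deposited log2 values Mmp12 had 0.32. On plate 1 Smad7 had -0.07, or -0.04 without R2, where Acta1 had 0.15 and Skil 0.00. With 1 library left out at a time, the log2 fold change ranged from -0.59 to 0.07 for Fn1, -0.61 to 0.55 for Mmp12, -0.28 to 0.05 for Pmepa1, -0.01 to 0.19 for Smad7 and -0.12 to 0.08 for Tgfbr1. The cause was not tested.

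With 1 library labelled vehicle left on plate 2 once R6 is out, values of that plate have no replicate check. Depth of 4.88 to 21.39 M counts limits genes of a few CPM.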
